A study of Mus musculus with 9 samples.

Results

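Retinoid binding, synthesis and breakdown genes are described here in quiescent MEFs (mouse embryonic fibroblasts), which are cultured connective tissue cells of the embryo. The cells carried 3 versions of Cdkn1b, the gene of the cell cycle inhibitor p27. The genes are Stra6, Dhrs9, Aldh1a1, Aldh1a2, Aldh1a3, Crabp1, Crabp2, Cyp26b1 and Rarb, taken by their gene symbols, each with its single named probe set. They are 9 of 19937 genes on the array. The set was chosen by the differences of Dhrs9, Crabp1 and Crabp2 between the genotypes, measured on these same 9 arrays, so the members' differences are a description and carry no test. Cells titled p27CK (CK), p27KO (KO) and p27WT (WT) were each measured on 3 Affymetrix arrays, 9 in all. All cells had been cultured with 10% fetal bovine serum, and serum was withdrawn for 72 h before RNA was taken. In published work p27CK is a p27 mutant unable to bind cyclins and their kinases, whereas the labels used here give the name alone. One extraction protocol serves every sample; it speaks of delta51 besides wild-type mice, and which cells delta51 means is not stated. Separate embryos or cultures are not named for arrays of the same genotype, so the spread between them may be technical and genotype cannot be told apart from the culture that carried it.

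Retinoic acid is made inside cells from retinol (vitamin A) in a pair of oxidations, first to retinal and then to retinoic acid, and it acts by binding nuclear receptors that sit on DNA. Binding proteins in the cytosol hold it, and enzymes of the Cyp26 family break it down. In embryos the balance of synthesis and breakdown patterns the limbs, the body axis and the skeleton, and several genes of the pathway are themselves switched on by retinoic acid. Rarb, a retinoic acid receptor gene, is the textbook example, through a direct repeat of the receptor's half-site in its promoter.

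Promoter windows from RefSeq (GRCm38.p6), each 250 bases before to 50 bases after a gene start, were matched for 7 of the 9 members and gave 11 windows. They were searched on both strands for direct repeats of 4 half-sites of 6 bases (the half-site AGGTCA, its variant AGTTCA, another variant GGGTCA and the variant GGTTCA), spaced by 1, 2 or 5 bases. A repeat was found in 1 window, that of Rarb, where the repeat with a spacer of 5 bases runs from base -53 to base -37 before the start. Among all 32851 promoter windows, 0.0974% held a repeat with that spacer and 0.588% held a repeat with any of the spacers. The windows of Dhrs9 and Crabp1 are shown beside that of Rarb because these genes differed most between genotypes. The Dhrs9 window held 1 half-site and no repeat, and that of Crabp1 held neither, which says only that these letters are not in these windows. The 250 bases before the start are printed from 5′ to 3′ on the gene's own strand, and capitals mark the repeat. The Rarb sequence lies at chr14:16575477-16575726 on the minus strand, that of Dhrs9 at chr2:69380212-69380461 on the plus strand and that of Crabp1 at chr9:54764498-54764747 on the plus strand.
Rarb: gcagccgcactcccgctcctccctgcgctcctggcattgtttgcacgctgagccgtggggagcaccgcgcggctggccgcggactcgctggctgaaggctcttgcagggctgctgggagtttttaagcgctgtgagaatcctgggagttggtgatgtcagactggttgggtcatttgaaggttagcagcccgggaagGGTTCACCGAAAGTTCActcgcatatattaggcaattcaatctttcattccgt
Dhrs9: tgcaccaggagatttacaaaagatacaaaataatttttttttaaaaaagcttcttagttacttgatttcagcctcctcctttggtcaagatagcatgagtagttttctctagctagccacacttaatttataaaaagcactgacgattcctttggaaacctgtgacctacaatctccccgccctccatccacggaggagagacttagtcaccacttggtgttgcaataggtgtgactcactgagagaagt
Crabp1: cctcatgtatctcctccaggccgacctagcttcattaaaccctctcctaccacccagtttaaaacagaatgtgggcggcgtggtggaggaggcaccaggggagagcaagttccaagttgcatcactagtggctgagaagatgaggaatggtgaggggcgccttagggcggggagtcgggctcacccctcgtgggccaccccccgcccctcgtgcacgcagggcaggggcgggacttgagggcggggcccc

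Values are log2 expression values made with RMA, so a difference of 1 is a doubling of the measured signal. RMA forces the arrays to nearly the same distribution, and a low value may be background. A change in the number of expressing cells cannot be told apart from a change in RNA per cell. Correlations between arrays over the genes tested were 0.992 to 0.998 within a genotype and 0.848 to 0.892 between genotypes. On its brighter probe set, Cdkn1b averaged 7.38 ± 0.11 in KO cells and 11.46 ± 0.04 in WT cells (log2, SD, n = 3), and 11.10 ± 0.09 in CK cells. Genes whose mean over the 9 arrays reached 7.24, the 40th percentile of genes, were tested with limma, which left 11962. Of the members, 6 passed this filter, while Aldh1a1, Aldh1a2 and Rarb did not. Dhrs9 passed only through CK and KO, its WT mean lying below the filter level.

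Retinol uptake was represented by Stra6, a membrane receptor that takes up retinol from its carrier in blood. Stra6 read 9.93, 10.19 and 10.58 on the CK arrays, 7.86, 7.65 and 7.62 on the KO arrays and 7.99, 7.96 and 8.01 on the WT arrays. CK stood apart from both other genotypes, and the KO arrays lay just below the WT arrays. CK exceeded WT by 2.24 on the log2 scale (SE 0.14, 95% interval 1.94 to 2.54), a 4.74-fold difference of the measured signal. KO minus WT was -0.28, with an interval of -0.58 to 0.02 that includes no difference. That interval rests on a spread shared by the 3 genotypes, whose SDs were 0.33 in CK, 0.13 in KO and 0.024 in WT. The fit of all 9 arrays did not call Stra6 between KO and WT. In the fit of the KO and WT arrays alone, limma called it lower in KO, as it did without CK replicate 1 or 3. These fits called 6263, 6169 and 6227 of the 11962 genes. The set was chosen with these comparisons known, so nothing is read from these calls. CK minus KO was 2.52 (SE 0.14).

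Dhrs9 encodes a short-chain dehydrogenase that can oxidise retinol to retinal. It read 10.54 on each of the 3 CK arrays, 12.28, 12.28 and 12.27 on the KO arrays and 6.73, 6.50 and 6.69 on the WT arrays. The genotypes formed 3 separate levels, with KO highest and WT lowest. KO exceeded WT by 5.64 (SE 0.06), which is 49.8-fold and ranks 4 from the highest among 11962 genes, and CK exceeded WT by 3.90 (SE 0.06), which is 14.9-fold. CK minus KO was -1.74 (SE 0.06). The WT level lies below 7.24 and may be background, so the folds describe measured signal. The CK values were exactly equal, as they were for 0.527% of the genes tested, and therefore no SD is given.

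The retinal dehydrogenases Aldh1a1, Aldh1a2 and Aldh1a3 each convert retinal to retinoic acid. Aldh1a1 read 8.80, 8.73 and 8.20 on the CK arrays, 6.25, 6.11 and 6.08 on the KO arrays and 6.11, 6.01 and 5.88 on the WT arrays. It was high in CK alone, with KO and WT overlapping. CK minus WT was 2.58, or 5.97-fold, and KO minus WT was 0.15. In a fit with no filter on dim genes their intervals were 2.25 to 2.90 and -0.18 to 0.47. Aldh1a2, the main enzyme of retinoic acid synthesis in the early mouse embryo, read 6.19, 6.46 and 6.11 on the CK arrays, 5.78, 5.64 and 5.78 on the KO arrays and 5.86, 5.80 and 5.86 on the WT arrays. All of these are dim. CK minus WT was 0.41, with an interval of 0.22 to 0.61 without the filter. KO minus WT was -0.11 as deposited and 0.01 with each array centred on its median, so it has no settled direction. Aldh1a3 read 7.68, 7.68 and 7.63 on the CK arrays, 7.63, 7.65 and 7.80 on the KO arrays and 7.56, 7.36 and 7.44 on the WT arrays. Both mutants lay slightly above WT, by 0.21 in CK (interval 0.06 to 0.36) and 0.24 in KO (interval 0.09 to 0.39), and CK minus KO was -0.03 (interval -0.18 to 0.12).

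**Figure D1:**
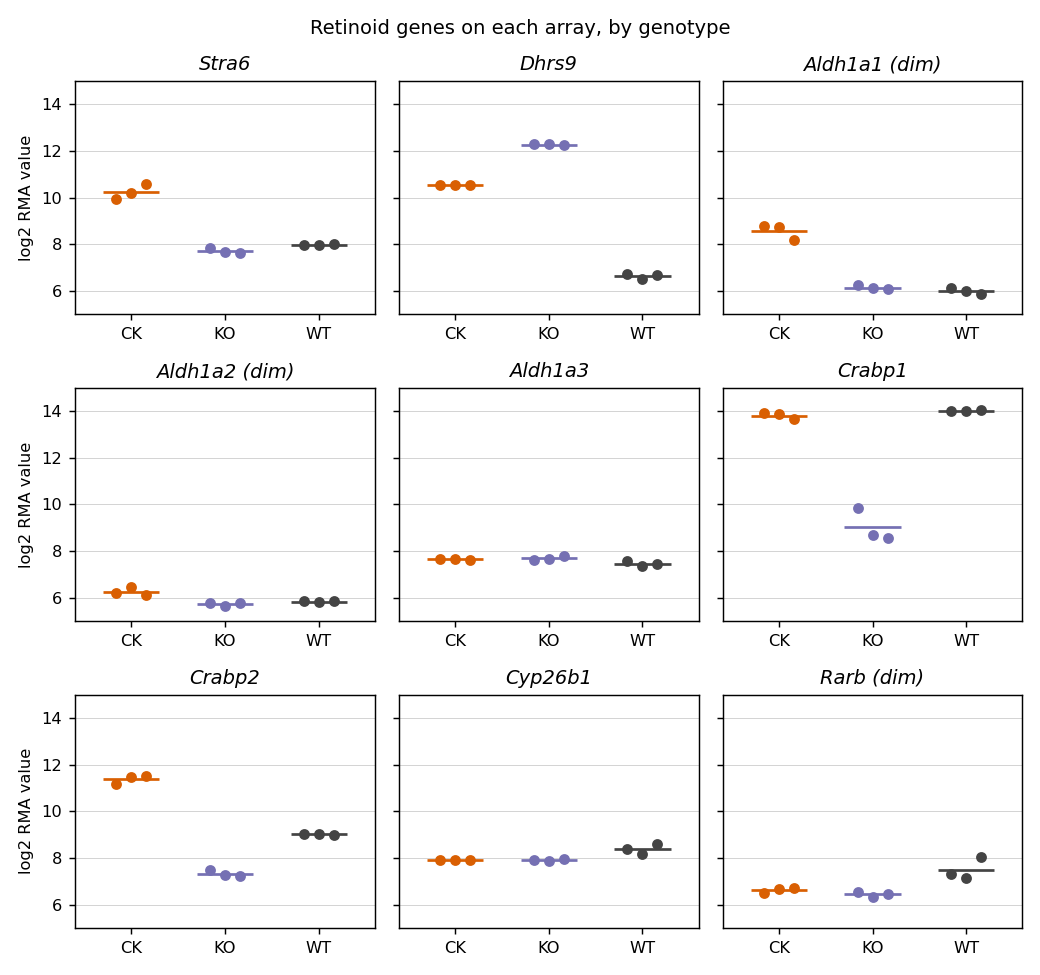
log2 RMA value (y axis) of each of the 9 genes on every array, with CK, KO and WT from left to right. Points are arrays and lines are the means of 3, and genes marked dim did not pass the filter. Levels are to be compared within a panel, not between genes: Dhrs9 forms 3 levels, Crabp1 is low in KO alone, and Stra6 and Aldh1a1 are high in CK alone.

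Crabp1 and Crabp2 encode small proteins that bind retinoic acid in the cytosol. Crabp1 is best known for holding retinoic acid in the cytosol and passing it to breakdown, and Crabp2 for carrying it to the receptors in the nucleus. Crabp1 read 13.91, 13.86 and 13.66 on the CK arrays, 9.86, 8.67 and 8.56 on the KO arrays and 14.01, 14.01 and 14.06 on the WT arrays. It was high in CK and WT and low in KO, and no KO array came near the others. KO minus WT was -5.00 (SE 0.27), 31.9-fold lower and rank 10 from the lowest of 11962 genes. CK minus WT was -0.22, with an interval of -0.82 to 0.38 that also rests on the spread of the KO arrays, and CK minus KO was 4.78 (SE 0.27). Every CK array lay below every WT array. The fit of all 9 arrays did not call Crabp1 between CK and WT. In the fit of the CK and WT arrays alone, and without KO replicate 1, limma called it lower in CK than in WT. These fits called 7341 and 7284 of the 11962 genes. The set was chosen by Crabp1 among others, so nothing is read from these calls. KO had the largest SD within a genotype among the members, 0.72, since replicate 1 read above the other two. Without KO replicate 1 the difference of KO from WT was -5.41.

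Crabp2 read 11.15, 11.46 and 11.51 on the CK arrays, 7.48, 7.25 and 7.22 on the KO arrays and 9.03, 9.03 and 9.00 on the WT arrays. The mutants lay on opposite sides of WT, with CK above and KO below it on every array. CK minus WT was 2.35 (SE 0.10), which is 5.11-fold, and KO minus WT was -1.70 (SE 0.10), which is 3.26-fold lower. CK minus KO was 4.06 (interval 3.84 to 4.28), which is 16.6-fold. KO was thus lower than WT for both binding proteins, while the CK arrays lay above WT for Crabp2 and slightly below it for Crabp1.

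Cyp26b1, an enzyme that breaks retinoic acid down and is itself induced by it, read 7.93, 7.92 and 7.92 on the CK arrays, 7.90, 7.88 and 7.97 on the KO arrays and 8.38, 8.15 and 8.59 on the WT arrays. Both mutants lay below every WT array, by nearly the same amount. CK minus WT was -0.45 (interval -0.66 to -0.24) and KO minus WT was -0.46 (interval -0.67 to -0.25). CK minus KO was 0.01 (interval -0.20 to 0.22), and -0.06 with the arrays centred on their medians or quantile normalized once more.

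Rarb, the receptor gene whose promoter carries the repeat shown above, read 6.48, 6.67 and 6.69 on the CK arrays, 6.53, 6.32 and 6.45 on the KO arrays and 7.30, 7.12 and 8.02 on the WT arrays. Its CK and KO means lay below the filter level and its WT mean of 7.48 just above it, and the WT arrays lay above all others. CK minus WT was -0.87, with an interval of -1.32 to -0.42 without the filter, and KO minus WT was -1.05, with an interval of -1.50 to -0.60. WT replicate 3 stood above the other WT arrays, and without it these differences were -0.60 and -0.78. CK and KO overlapped.

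Among the 6 members tested, limma called 5 between CK and WT, 4 higher and 1 lower in CK, where 62.9% of all genes were called, 30.7% higher and 32.1% lower. The arrays did not overlap for 6 of the 6, against 67.3% of all genes. Between KO and WT it called 5, 2 higher and 3 lower in KO, where 51.2% of all genes were called, 26.6% higher and 24.6% lower. The arrays did not overlap for 6 of the 6, against 60.9% of all genes. Between CK and KO it called 4, 3 higher and 1 lower in CK, where 62.2% of all genes were called, 29.5% higher and 32.7% lower. The arrays did not overlap for 4 of the 6, against 67.5% of all genes. Because the members were chosen for these comparisons and 3 of them did not pass the filter, nothing is read from these counts. The differences of CK and of KO from WT use the same WT arrays. The median of the 6 members tested was 1.23 in CK minus WT and -0.37 in KO minus WT. Over all genes tested it was -0.01 and 0.01. Dhrs9 passed the filter only through CK and KO, and the members were chosen for these differences, so nothing is read from the medians. KO replicate 1 was the highest KO array for 6 of the 9 members, counting the dim ones, against 27.2% of all genes tested.

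**Figure D2:**
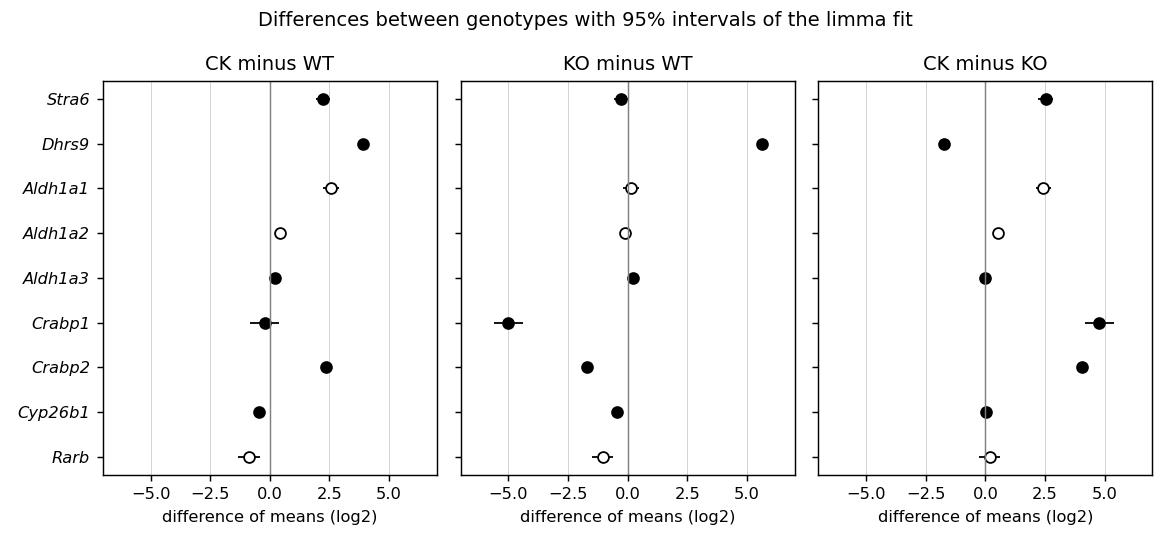
Differences of mean log2 values (x axis) of the 9 genes for CK minus WT, KO minus WT and CK minus KO, with 95% intervals of the limma fit, some of which are narrower than the points. Filled points passed the filter on dim genes, and open points are from the fit without it. Dhrs9 lies right of 0 in both mutants, Crabp2 right of 0 in CK and left of 0 in KO, and Cyp26b1 and Rarb left of 0 in both.

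Genes with a pattern close to those of the 3 leading members were found by the root mean square difference, over the 9 arrays, of log2 values centred on each gene's mean. Nearest to Dhrs9 were Mab21l2 (0.22), Gca (0.55), Fmod (0.66) and Gpc3 (0.69). Nearest to Crabp1 were Cyp2f2 (0.27), Ccl2 (0.36), Renbp (0.37) and Thy1 (0.38), each of which was low in KO alone. Thy1, a surface protein used as a fibroblast marker, averaged 11.69 ± 0.06 in CK cells, 7.14 ± 0.25 in KO cells and 11.73 ± 0.19 in WT cells (log2, SD, n = 3). Nearest to Crabp2 were Plxdc1 (0.15), Cd34 (0.24), Galnt17 (0.25) and Tcim (0.30). Cd34, a surface glycoprotein, averaged 12.80 in CK cells, 9.08 in KO cells and 10.91 in WT cells.

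The rest of the pathway was read from a list of 54 genes, of which 50 were on the array under a single name and 25 were bright enough to be tested. In CK, 5 of the 25 rose and 9 fell relative to WT, where 62.9% of all genes were called, and the median difference was -0.11 against -0.01 over all genes. The largest rise was that of Adh1, an alcohol dehydrogenase that can oxidise retinol, by 1.89 (SE 0.13, limma adjusted p = 4.68e-07). Adh1 averaged 11.59 ± 0.11 in CK cells and 9.70 ± 0.23 in WT cells (SD, n = 3). Rbp4, the carrier of retinol in blood, rose by 1.05 (adjusted p = 2.51e-06) and Rxrb by 0.37. Dhrs3, which reduces retinal back to retinol, rose by 0.53 (adjusted p = 0.0169), a call that was lost without WT replicate 3 (adjusted p = 0.0682) or CK replicate 3 (0.0704). Rdh11, a retinal reductase, fell by 1.10 (SE 0.06, adjusted p = 8.94e-08), the receptor coactivator Ncoa1 fell by 0.97, Rdh14 fell by 0.76 and Dhrs4 fell by 0.75.

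In KO, 5 of the same 25 genes rose and 11 fell relative to WT, where 51.2% of all genes were called, with a median difference of -0.10 against 0.01 over all genes. With the arrays centred on their medians the split was 8 up and 9 down. Adh1 rose in KO too, by 1.61 (SE 0.13, limma adjusted p = 2.15e-06), the corepressor gene Nrip1 by 0.56 (adjusted p = 2.02e-05), Rbp4 by 0.56 and Rxrb by 0.46. Adh7, another alcohol dehydrogenase that uses retinol, fell by 1.49 (SE 0.10, adjusted p = 4.23e-07), and Rdh10, the main retinol dehydrogenase of the mouse embryo, fell by 1.09 (SE 0.10, adjusted p = 6.42e-06). Rdh10 averaged 11.59 ± 0.17 in CK cells, 10.56 ± 0.18 in KO cells and 11.64 ± 0.03 in WT cells. Rdh11 fell by 1.06, and Fabp5, a fatty acid binding protein that can also carry retinoic acid, fell by 0.80.

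Set directly against each other, the mutants differed in 14 of these 25 genes, 4 higher and 10 lower in CK, where 62.2% of all genes were called. Adh7 was higher in CK by 1.43 (limma adjusted p = 4.15e-07), Rdh10 by 1.03 (adjusted p = 6.58e-06), Rbp4 by 0.49 and Ppard by 0.43. The coactivator genes Ncoa2 and Ncoa1 were lower in CK, with differences of -0.75 and -0.63, as were Nrip1 at -0.57 and Dhrs4 at -0.46. By role, 10 tested genes interconvert retinol and retinal, of which 2 rose and 4 fell in CK and 1 rose and 6 fell in KO. All 6 receptor cofactors on the array were tested. Of these, 0 rose and 2 fell in CK, and 2 rose and 1 fell in KO. The counts by role are relative to WT, where 62.9% of all genes were called in CK and 51.2% in KO. The other retinoic acid breakdown genes, Cyp26a1 and Cyp26c1, did not pass the filter.

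**Figure D3:**
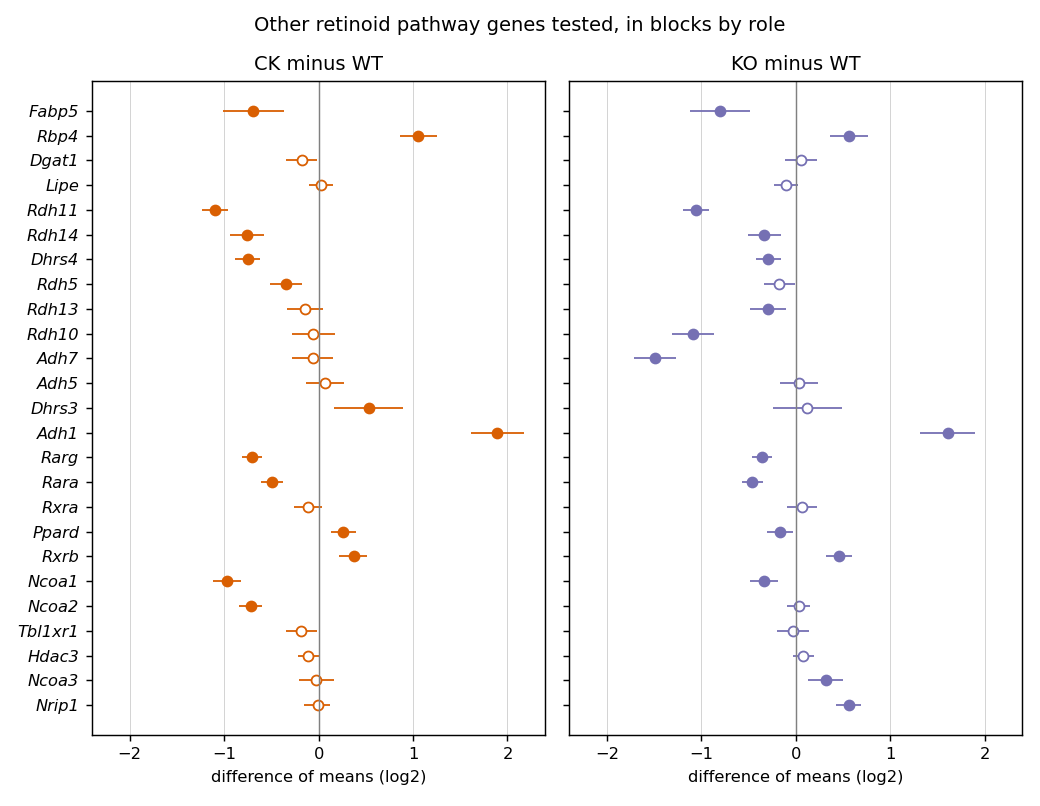
Differences of mean log2 values (x axis) of the 25 tested genes of the wider pathway for CK minus WT and KO minus WT, with 95% intervals. Filled points passed the limma test at an adjusted p under 0.05, and genes run down the page by role: carriers, storage, retinol and retinal interconversion, receptors and cofactors. Adh1 and Rbp4 lie right of 0 in both mutants, and Adh7 and Rdh10 are called left of 0 in KO and lie close to 0, not called, in CK.

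The receptors other than Rarb changed by less than 2-fold. Rara fell by 0.49 in CK (SE 0.05, limma adjusted p = 9.23e-06) and by 0.46 in KO (adjusted p = 2.42e-05), and CK minus KO was -0.04 (interval -0.15 to 0.07). Rarg fell by 0.70 in CK and by 0.36 in KO, and was lower in CK than in KO, with a difference of -0.35 (adjusted p = 9.26e-05). Rxrb, which encodes one of the RXR partners of these receptors, rose in both. Rxra differed from WT by -0.11 in CK and 0.07 in KO, neither called (adjusted p = 0.191 and 0.463), and its call between the mutants, at -0.17, was lost under several alternatives, among them the fit without CK replicate 1 (adjusted p = 0.0997; 0.0464 with all arrays). Ppard, a receptor that can be supplied with retinoic acid by Fabp5, rose by 0.26 in CK (adjusted p = 0.00337). In KO it differed by -0.17 (adjusted p = 0.0447), a call lost without WT replicate 1 (0.121), WT replicate 2 (0.122), any one CK replicate, KO replicate 1 (0.162) or KO replicate 3 (0.128). Rxrg did not pass the filter.

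Genes known to respond to retinoic acid were taken from a second list, of which 15 genes that are not members were on the array and 11 were tested. They went both ways in each mutant, with 4 rising and 3 falling in CK and 4 rising and 3 falling in KO, relative to WT. Over all genes, 62.9% were called in CK and 51.2% in KO. Of the 11, 2 also stand on the list of the wider pathway, Dhrs3 and Nrip1. Tgm2, which encodes tissue transglutaminase, rose by 1.10 in CK (SE 0.07, limma adjusted p = 3.96e-07) and by 0.72 in KO (adjusted p = 1.40e-05). Gata6, a transcription factor, rose by 0.71 in CK and by 1.16 in KO (adjusted p = 8.63e-08). Rarres1 fell by 1.22 in CK and by 0.72 in KO.

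The homeobox genes Meis1 and Meis2, which mark the proximal limb, separated the mutants. Meis2 read 10.33, 10.32 and 10.51 on the CK arrays, 12.69, 12.75 and 12.64 on the KO arrays and 12.37, 12.26 and 12.29 on the WT arrays. It fell by 1.92 in CK (SE 0.06, limma adjusted p = 2.26e-09) and rose by 0.39 in KO (adjusted p = 0.00052), and CK minus KO was -2.31 (adjusted p = 5.1e-10). Meis1 fell by 1.13 in CK, while KO minus WT was 0.14 (adjusted p = 0.264), and CK minus KO was -1.26 (adjusted p = 9.83e-07). Bhlhe40 fell by 0.93 in KO (adjusted p = 3.61e-05). Rarres2, which encodes chemerin, fell by 0.85 in KO (adjusted p = 0.000289) and was higher in CK than in KO by 1.20 (adjusted p = 1.64e-05). Its difference of 0.34 between CK and WT (adjusted p = 0.0415) was no longer called under several alternatives, among them the fits without WT replicate 1 (0.134), WT replicate 2 (0.13), CK replicate 1 (0.113), CK replicate 2 (0.158) or KO replicate 1 (0.0549). Between CK and KO, 8 of the 11 were called, 3 higher and 5 lower in CK, against 62.2% of all genes.

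**Figure D4:**
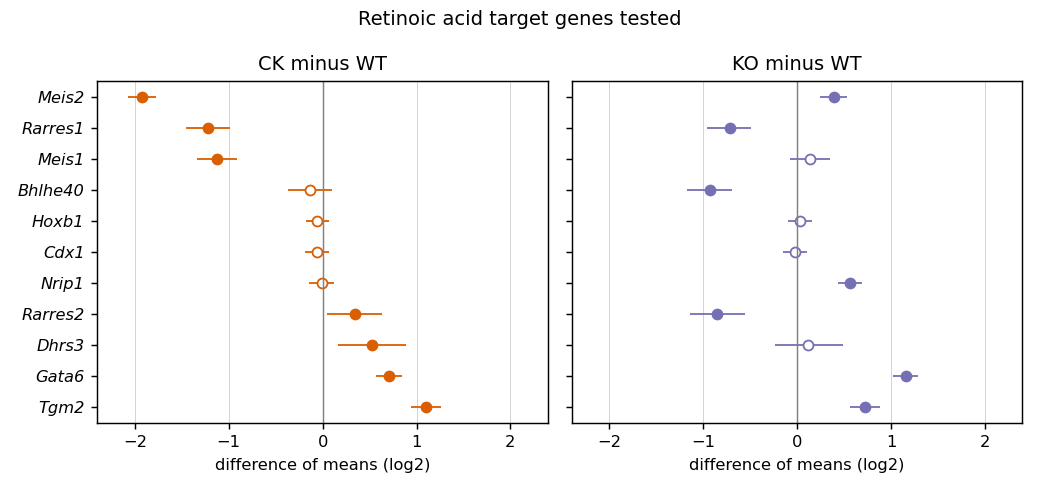
Differences of mean log2 values (x axis) of the 11 tested retinoic acid target genes that are not members, for CK minus WT and KO minus WT, with 95% intervals. Filled points passed the limma test at an adjusted p under 0.05. Meis2 lies left of 0 in CK and right of 0 in KO, while Tgm2 and Gata6 lie right of 0 in both.

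Markers of several cell types were read on the same arrays. All 10 fibroblast markers were tested and averaged 12.56 to 12.62 on the CK arrays, 11.91 to 11.95 on the KO arrays and 12.78 to 12.85 on the WT arrays. Relative to WT, 2 of them rose and 4 fell in CK, and 1 rose and 8 fell in KO, with Thy1 the deepest fall in KO (log2 difference -4.59). Beside these and the marker counts below, 62.9% of all genes tested were called between CK and WT and 51.2% between KO and WT. The 10 chondrocyte markers averaged 7.80 to 7.86 on the CK arrays, 11.15 to 11.51 on the KO arrays and 8.47 to 8.78 on the WT arrays. Of the 9 tested, 9 rose and 0 fell in KO relative to WT, led by Ucma (5.81) and Matn1 (5.52), and 1 rose and 5 fell in CK. The remaining marker, Hapln1, did not pass the filter and averaged 6.21 ± 0.17 in KO cells and 7.77 ± 0.61 in WT cells (SD, n = 3). In KO, cartilage markers and Dhrs9 were high and Crabp1 was low. In CK, Dhrs9 was also above WT, while the chondrocyte list lay below it, with Cnmd the deepest of the 5 falls (-6.03). Ucma was the 1 marker of this list that rose in CK, by 1.99 (limma adjusted p = 1.29e-06). Acan, Matn1 and Col9a1 were not called in CK. The part of cartilage-like cells in these differences was not tested. The 6 mesothelial markers averaged 7.01 to 7.12 on the CK arrays, 6.96 to 6.99 on the KO arrays and 6.57 to 6.63 on the WT arrays. Of the 3 tested, Msln rose by 2.76 in CK (limma adjusted p = 1.09e-08), and Msln and Upk3b rose in KO, by 0.96 and 1.31. Upk3b averaged 7.05 in CK cells, 8.39 in KO cells and 7.07 in WT cells, and Wt1 averaged 7.33 in CK cells, 7.28 in KO cells and 7.29 in WT cells. Msln was high in CK, as were Aldh1a1 and Stra6, and the part of mesothelial-like cells in these values was not tested. The endothelial, macrophage, neural, epithelial, muscle and liver lists averaged at most 7.34 on every array, and the liver list lay between 6.50 and 6.66. Single markers among them nevertheless changed with genotype. The macrophage marker Cd68 fell by 2.05 in CK and fell by 2.66 in KO (limma adjusted p = 3.14e-08 and 4.73e-09), and averaged 8.59 in CK cells, 7.99 in KO cells and 10.64 in WT cells. The endothelial marker Tek fell by 2.26 in CK and fell by 1.97 in KO, and the neural marker Map2 fell by 1.22 in CK and fell by 2.94 in KO. The part of such cells in the members' differences was not tested.

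**Figure D5:**
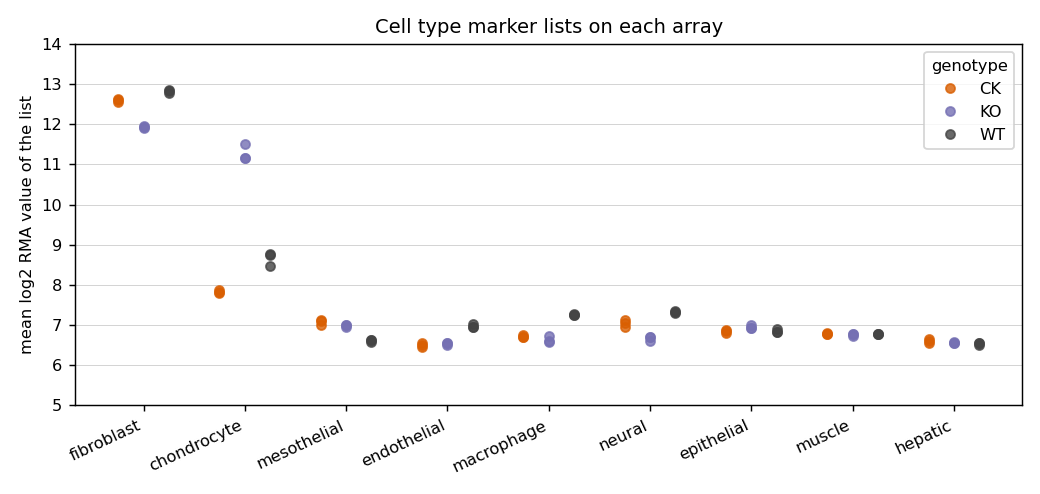
Mean log2 RMA value (y axis) of 9 lists of cell type markers on each array, with CK, KO and WT from left to right within a list. Points are arrays. The chondrocyte list is highest in KO, the mesothelial list is lowest in WT, and the other non-fibroblast lists lie near 7 or below.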

How the data were processed

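RNA of 9 samples was hybridised to Affymetrix arrays, 3 per genotype, grouped by their titles. The deposited table holds log2 expression values of 34760 probe sets, which the authors computed by RMA; the submitters' processing notes also name the affy package, while versions and chip description files are not given in the sources used here. Every deposited value had lost its decimal mark and stood as a string of 10 to 15 digits. Strings starting with 1 were read as 10 or more and the rest as below 10, and the restored values span 4.28 to 14.4. Where the arrays of a genotype straddled 10 (2242 pairs of genotype and probe set), their median range was 0.263 once restored and 8.92 if not, and it was 0.133 elsewhere. The platform annotation supplied with the data gave 1 symbol to 21640 probe sets, several to 1321 and none to 11799; 21553 identifiers of the first were found in a RefSeq gene table. The brightest probe set stood for a gene.

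A single limma 3.58.1 fit (R 4.3.3) covered all 9 arrays, with 1 coefficient per genotype and Benjamini-Hochberg adjustment over 11962 genes, and called at an adjusted p under 0.05. Precision is limited by the array number; the residual SD had a median of 0.0875. The fit was also run on simulated data with independent normal noise and far fewer changed genes than were called here. Nothing about the precision of the present calls is read from that run. The members and the gene lists were chosen with earlier results of these data known. Of the wider lists, the text names the called genes with the largest differences, up to 4 in each direction, and the receptors. It also names the 4 genes nearest in pattern to each of 3 members, skipping clone and gene-model symbols. Alternatives were other filters on dim genes, probe set handling, scalings, variance models, array weights, fits of 6 arrays, the replicate number as a block, a stricter threshold and leaving out each array.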

Additional observations from a re-analysis of the deposited data

Results flagged for a closer look

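The members and the lists of the wider pathway and of retinoic acid targets were searched for mutants on opposite sides of WT. In 5 genes every CK array lay on one side of all WT arrays and every KO array on the other. Over all genes tested, arrays did not overlap for 67.3% between CK and WT and 60.9% between KO and WT. The share on opposite sides of WT was not counted over all genes, so nothing is read from the number. The members among the 5 genes were Crabp2, with CK minus KO at 4.06, Stra6 at 2.52 and the dim Aldh1a2 at 0.52. Crabp2 and Stra6 are among the members that limma called between CK and KO, and no p is given because the members were chosen with these comparisons known. The difference was not tested for Aldh1a2, which did not pass the filter on dim genes. The KO side of Stra6 is small, with an interval of KO minus WT that includes 0 in the fit of all 9 arrays. That of Aldh1a2 was 0.01 with the arrays centred on their medians. Of the wider lists, the same held for Meis2, with CK minus KO at -2.31 (limma adjusted p = 5.1e-10), and for Hdac3 at -0.18 (limma adjusted p = 0.00721).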

How the results depend on the processing

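The members' differences were recomputed 378 times under the alternatives, and 375 stayed within 1 SD of the replicates. Part of this was fixed in advance. Each member has 1 probe set, so averaging probe sets cannot move it. A balanced replicate block leaves a difference of means as it was. An array of the genotype outside a comparison does not enter its difference. With each array centred on its median, Dhrs9 in KO minus WT was 5.75 and Aldh1a3 was 0.35, which was 0.33 after quantile normalization once more. Centring placed the median KO minus WT difference of all genes at 0.13, against 0.0146 as deposited, and gave 5102 genes higher and 2122 lower in KO, against 3184 and 2945. The number of members called moved with the filter and the fit. At the 60th percentile it was 3 of 3 tested between KO and WT and 2 of 3 between CK and WT. There 4434 and 5442 of all 7975 genes were called. With no filter it was 8 of 9 between CK and WT, where 8434 of 19937 genes were called. In fits of 6 arrays it was 6 of 6 for either mutant against WT. There 6263 genes were called in KO and 7341 in CK, of 11962. The members were chosen for these comparisons, so nothing is read from these counts. Leaving out 1 array at a time gave -5.41 to -4.76 for Crabp1, -1.79 to -1.65 for Crabp2 and 5.57 to 5.68 for Dhrs9 in KO minus WT. Correlations of the deviations of same-numbered arrays ran from -0.303 to 0.361, and those of differently numbered arrays from -0.339 to 0.252. With 3 arrays per genotype these overlapping ranges cannot decide whether the replicate number pairs the arrays. With the replicate number as a block, limma called 7377 genes between CK and WT, 5979 between KO and WT and 7291 between CK and KO, against 7520, 6129 and 7439. Dim values limit Rarb, Aldh1a1, Aldh1a2, the WT level of Dhrs9 and the KO level of Crabp2.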
